A study of Homo sapiens with 4 samples.

Results

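The genes described here make cholesterol, control its making, move it inside the cell and export it. They were chosen by their role in the pathway, with no threshold on their values. The list held 30 genes: 18 enzymes of cholesterol synthesis, 5 regulators of the SREBP transcription factors, 4 genes of sterol transport and storage, and 3 targets of the oxysterol receptor LXR, of which ABCA1 and ABCG1 are efflux pumps. The cells were MCF12A, a cell line from human breast epithelium that does not form tumors. All 4 cultures shared a medium with insulin, cholera toxin, hydrocortisone, epidermal growth factor and horse serum, which carries lipoprotein cholesterol. The ethanol experiment was 1 unexposed culture (control 1) and 1 culture kept for 1 week in 25 mM ethanol. The acetaldehyde experiment was another unexposed culture (control 2) and 1 culture kept for 1 week in 2.5 mM acetaldehyde, the product of ethanol oxidation. RNA of each culture was read on 1 Affymetrix Human Gene 1.0 ST array. A gene was represented by its brightest probe set among those that the platform annotation gives to that gene alone, and 28 of the 30 had one, among 18417 genes in all. FDFT1 (squalene synthase) had none in the annotation used here, and HSD17B7 (a sterol ketoreductase) shared its probe set with the pseudogene HSD17B7P2.

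Cells make cholesterol from acetyl-CoA in a chain of enzymes, first through mevalonate to farnesyl diphosphate and then through squalene and lanosterol to cholesterol. When membrane sterol is low, SCAP escorts the SREBP proteins out of the endoplasmic reticulum, they are cleaved, and the released part enters the nucleus and switches on these enzymes together with uptake genes. INSIG proteins hold SCAP back when sterol is plentiful, and oxysterols then act on LXR, which switches on efflux pumps. Cultured epithelial cells also take up cholesterol from serum lipoproteins, and NPC1 and NPC2 carry it out of the lysosome.

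These circuits act on DNA next to the start sites, so the promoters of 5 members are shown. They are SREBF2, the only member whose promoter held the sterol element searched for, the enzymes SC5D, FDPS and MSMO1, and ABCA1. The enzymes are those with the lowest level in the acetaldehyde experiment relative to the ethanol experiment among enzymes with a RefSeq promoter, and ABCA1 is the highest such gene of the LXR group with a promoter. This choice was made after the values were seen. Each sequence is the RefSeq window of 250 bases before to 50 after the start site (GRCh38.p14), 5′ to 3′ on the gene's strand. Capitals mark matches on either strand to TCACNCCAC (a sterol regulatory element with 1 free base), CCAAT (the box bound by NF-Y, a usual partner of SREBP) or GGGCGG (the Sp1 box). No match overlapped one of another motif, while SREBF2 has 2 Sp1 matches that share base -5.
SREBF2, chr22:41832855-41833154, plus strand: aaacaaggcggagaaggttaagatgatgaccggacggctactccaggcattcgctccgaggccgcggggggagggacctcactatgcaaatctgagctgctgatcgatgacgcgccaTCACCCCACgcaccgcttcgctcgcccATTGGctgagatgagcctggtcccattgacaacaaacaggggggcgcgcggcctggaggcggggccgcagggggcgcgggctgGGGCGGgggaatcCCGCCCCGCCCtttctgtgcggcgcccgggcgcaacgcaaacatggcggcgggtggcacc
SC5D, chr11:121292521-121292820, plus strand, the first of its 2 windows: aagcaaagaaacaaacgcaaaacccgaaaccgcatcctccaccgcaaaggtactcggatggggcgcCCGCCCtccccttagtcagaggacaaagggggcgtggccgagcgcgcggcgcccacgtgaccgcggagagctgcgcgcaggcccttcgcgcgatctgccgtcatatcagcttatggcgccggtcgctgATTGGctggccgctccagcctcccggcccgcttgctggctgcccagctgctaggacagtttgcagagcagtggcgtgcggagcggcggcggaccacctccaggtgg
FDPS, chr1:155308616-155308915, plus strand: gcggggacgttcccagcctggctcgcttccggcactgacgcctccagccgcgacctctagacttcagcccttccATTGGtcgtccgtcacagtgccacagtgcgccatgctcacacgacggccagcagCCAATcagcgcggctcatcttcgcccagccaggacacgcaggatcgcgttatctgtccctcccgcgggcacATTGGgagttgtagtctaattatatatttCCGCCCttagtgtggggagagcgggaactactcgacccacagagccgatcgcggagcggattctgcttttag
MSMO1, chr4:165327419-165327718, plus strand: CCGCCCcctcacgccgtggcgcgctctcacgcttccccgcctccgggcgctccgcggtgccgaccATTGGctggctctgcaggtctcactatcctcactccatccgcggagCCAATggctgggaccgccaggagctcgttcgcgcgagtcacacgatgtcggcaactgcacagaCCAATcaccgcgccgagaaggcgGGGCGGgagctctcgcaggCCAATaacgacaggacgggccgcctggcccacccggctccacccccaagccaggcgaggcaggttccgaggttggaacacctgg
ABCA1, chr9:104928106-104928405, minus strand: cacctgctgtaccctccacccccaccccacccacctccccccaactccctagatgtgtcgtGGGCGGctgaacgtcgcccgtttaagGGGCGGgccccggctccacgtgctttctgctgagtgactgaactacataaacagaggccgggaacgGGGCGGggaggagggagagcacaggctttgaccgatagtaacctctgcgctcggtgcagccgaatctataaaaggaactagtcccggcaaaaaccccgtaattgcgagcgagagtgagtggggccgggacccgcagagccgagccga

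RefSeq promoters were found for 26 of the 30 members. The sterol element stood in 1 of those 26, at bases -133 to -125 of SREBF2 from the start site, against 1.13% of 35116 promoters of the same length. A CCAAT box was present for 13 of 15 synthesis enzymes with a promoter (15 of their 20 windows), CYP51A1 and PMVK being the others, against 34.6% of all promoters. FDPS had 3 such boxes and MSMO1 had 4. The Sp1 box was found for 14 of the 15 enzymes, against 45.0% of promoters, and ABCA1 had 3. The LXR element, a direct repeat of AGGTCA with any 4 bases between the copies, matched in none of the 26, and in 0.0199% of all promoters. Both strands were searched, and only exact matches were counted, apart from the free bases. A site that departs from the pattern would be missed, so no match does not show that an element is absent. These matches describe letters in the windows, not bound sites.

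Values below are deposited intensities on a linear scale, and differences are on the log2 scale, where 1 unit is a factor of 2. The median intensity of all 33297 probe sets lay between 90.2 and 113.8 on the 4 arrays. Value distributions differed by 0.0268 to 0.0398 (mean log2 distance) within an experiment and by 0.270 to 0.285 between experiments, and the lower quartile was 0.49 higher in control 2 than in control 1. The arrays of the experiments thus appear to have been normalized separately, and each comparison between them was repeated after normalizing the 4 arrays together. Differences were set beside those of 10373 genes whose highest intensity reached 155, the median of probe sets that name 1 gene. All 28 measured members passed this filter, 22 of them on every array. The other 6 passed only through the arrays where they were bright. ABCA1 (the acetaldehyde array alone), ABCG1 and MYLIP (control 2 alone) passed through the acetaldehyde experiment. INSIG2 and STARD4 passed through the ethanol experiment, and TM7SF2 through the controls. A difference in that direction was thus built into the passing of all 6, and they are described below with no p. With 1 array a group, a difference has no replicate check. A gene was counted as called when it was at least 1.5-fold apart.

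The basal keratin KRT5, an epithelial marker, was bright on each array, at 9757 to 12169. Of the measured epithelial markers 12 of 12 were kept, which required only 1 array at the filter intensity. KRT19, at 93.0 to 184, reached it in control 2 alone. The leukocyte marker PTPRC was at 10.3 to 15.9, and of 11 measured blood, vessel, nerve and fat cell markers 3 were kept (CD14, CD68 and SOX10). None was listed at 0. Differentiation and growth markers did differ between the cultures. The summed intensity of 16 squamous differentiation markers was 41920 in control 1 and 4556 with ethanol, against 15193 in control 2 and 7331 with acetaldehyde. For 10 proliferation markers it was 5865, 8604, 11225 and 12074 in the same order, and for 14 mesenchymal markers, 8 of them bright enough to be kept, 4352, 8132, 10542 and 13992. Of these FN1 alone was at 446, 1124, 5329 and 7363, while CDH11 and TNC were lower in control 2 than in control 1. The part of these marker differences in the results below was not tested.

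**Figure D1:**
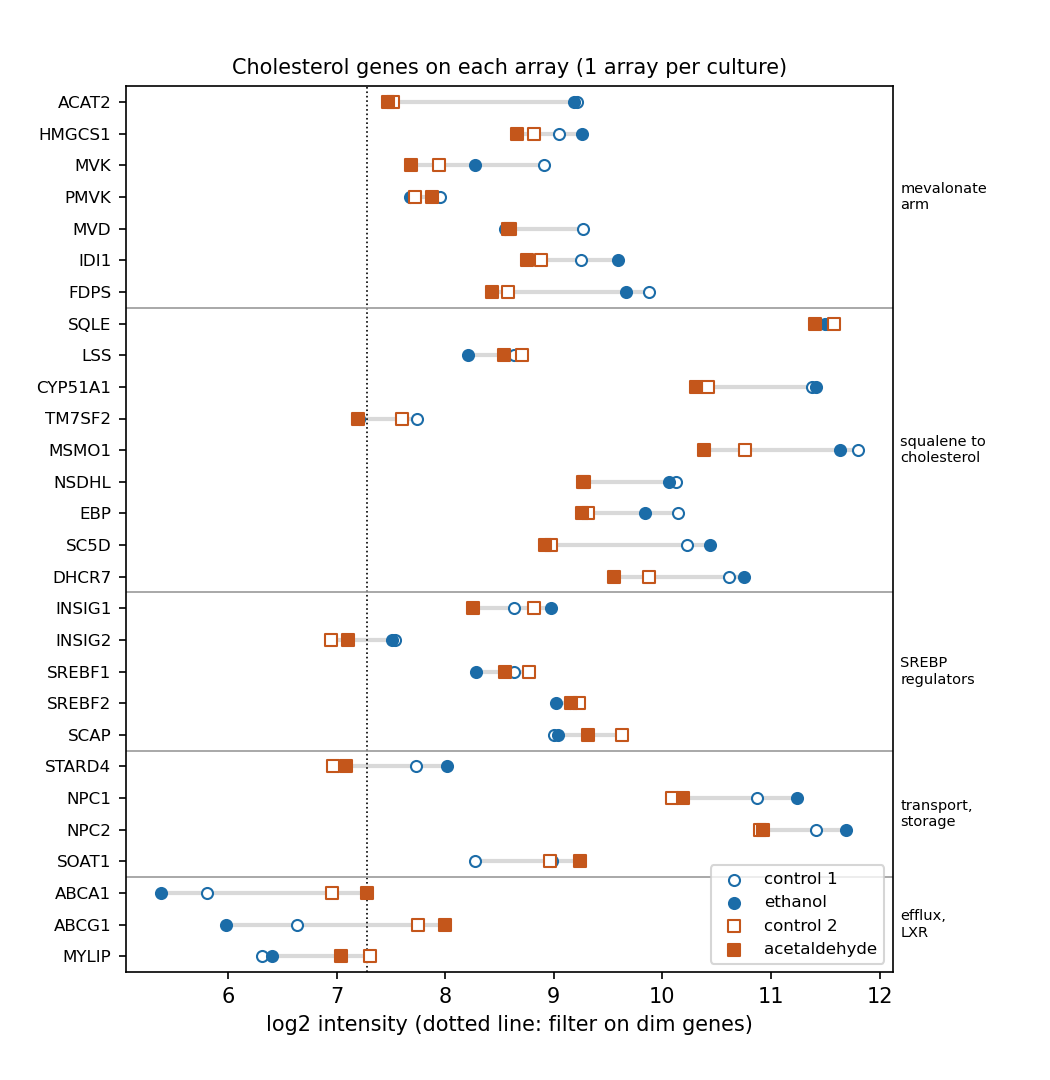
Log2 intensity of the 28 measured members on each array, with 1 point per culture and no error bars because each culture had 1 array. Blue circles are the ethanol experiment and orange squares the acetaldehyde experiment, open for the control and filled for the exposed culture. In 20 of 28 genes the blue and orange points did not overlap. Orange was lower in 15, against 32.7% of all genes, and higher in 5, against 37.8%. These counts include INSIG2, STARD4, ABCA1, ABCG1 and MYLIP, which passed the filter only through the experiment where they were higher. Nothing is read from them.

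The largest differences lay between the experiments, not within them. Most synthesis enzymes and the lysosomal cholesterol carriers were lower on both arrays of the acetaldehyde experiment, while ABCA1, ABCG1 and MYLIP were higher. The comparison of control 2 with control 1, both unexposed, asked how far cultures differed with no exposure. Of the 28 members 13 were at least 1.5-fold lower in control 2, against 12.9% of all genes, and 5 were at least 1.5-fold higher, against 14.9%. At 2-fold the counts were 4 lower (4.85% of all genes) and 2 higher (4.25%). Those 2, ABCA1 and ABCG1, passed the filter only through the acetaldehyde experiment, as did MYLIP among the 5 higher. INSIG2 and STARD4, among the 13 lower, passed only through the ethanol experiment. Nothing is read from these genes in the counts. Below 0 were 18 members, against 45.5% of genes. Among the 16 measured enzymes 10 were at least 1.5-fold lower in control 2 and none was 1.5-fold higher, and their median difference was -0.79, against 0.06 over all genes. In the same comparison 13 of 16 squamous markers were at least 1.5-fold lower (median -1.90) and 8 of 10 proliferation markers at least 1.5-fold higher (median 0.89). In bulk RNA, fewer cells that express a gene and less of its RNA per cell cannot be told apart.

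The same difference was tested on all 4 arrays with limma, in a fit with a term for the experiment and one for exposure. Its experiment term averages control 2 minus control 1 and acetaldehyde minus ethanol, which share no array. In this fit 14 members were called lower and 3 higher in the acetaldehyde experiment (Benjamini-Hochberg adjusted p under 0.05 over 10373 genes), against 16.6% of all genes called lower and 18.6% called higher. The 3 called higher (ABCA1, ABCG1 and MYLIP) and 2 of those called lower (INSIG2 and STARD4) had passed the filter only through the experiment where they were higher, so nothing is read from their calls. Both arrays of the acetaldehyde experiment lay below both of the ethanol experiment for 15 members, against 32.7% of all genes, and above for 5, against 37.8%. The genes just named are among these counts too, and nothing is read from them there. The fit has 1 residual degree of freedom, and culture, array run and normalization cannot be told apart in it. Nothing in the labels says more of how the cultures were raised, so the p-values reflect only how these arrays spread, which may be technical.

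In the mevalonate arm, which builds the isoprenoid units of the sterol, all 7 enzymes were lower in control 2 than in control 1. Of all genes 45.5% were lower there. In the experiment fit 4 of the 7 were called lower, against 16.6% of all genes. ACAT2, which joins acetyl-CoA units in the cytosol, had an intensity of 595 in control 1 and 584 with ethanol, against 183 in control 2 and 177 with acetaldehyde. Its arrays fell into tight pairs by experiment, with an estimate of -1.71 (SE 0.11, limma adjusted p = 0.00848). FDPS, farnesyl diphosphate synthase, was at 941, 814, 382 and 344 in the same order of arrays. Both values of the acetaldehyde experiment were below both of the other, and FDPS fell by 1.27 (SE 0.11, limma adjusted p = 0.00954). MVK, mevalonate kinase, stood at 481, 309, 247 and 206, with its highest value in control 1. It fell by 0.77 between experiments (SE 0.14, limma adjusted p = 0.0212), but no longer passed when the exposure term was left out.

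IDI1, the isomerase of the isoprenoid unit, had intensities of 607 in control 1 and 771 with ethanol, against 472 in control 2 and 431 with acetaldehyde. It fell by 0.60 (SE 0.16, limma adjusted p = 0.0431), a call that was lost when the arrays were normalized together or the exposure term was left out. HMGCS1, the synthase that makes HMG-CoA, was at 529, 613, 451 and 405 and showed the same order with a smaller gap. Its estimate of -0.41 did not pass (limma adjusted p = 0.0792). MVD, the decarboxylase that follows the kinases, was high in control 1 alone, at 616, against 375 with ethanol, 388 in control 2 and 381 with acetaldehyde. PMVK, phosphomevalonate kinase, stayed between 204 and 247 on the 4 arrays, and its experiments overlapped.

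From squalene to cholesterol, 6 of the 9 measured enzymes were called lower in the acetaldehyde experiment, against 16.6% of all genes, and 3 did not pass. The lowest estimate belonged to SC5D, the C5 sterol desaturase whose promoter is printed above, at 1197 in control 1 and 1391 with ethanol, against 504 in control 2 and 483 with acetaldehyde. It fell by 1.39 (SE 0.13, limma adjusted p = 0.00997), and the experiments were well apart. MSMO1, the C4 sterol methyl oxidase with 4 CCAAT boxes, was at 3562, 3183, 1736 and 1335, lowest with acetaldehyde. Its estimate was -1.15 (SE 0.12, limma adjusted p = 0.0107). CYP51A1, the lanosterol demethylase, was at 2665, 2724, 1366 and 1267, and its other probe set gave the same order at 1553, 1881, 780.3 and 689. It fell by 1.03 (SE 0.12, limma adjusted p = 0.0110).

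DHCR7, which makes the last reduction to cholesterol in one branch of the pathway, had intensities of 1567 in control 1 and 1720.0 with ethanol, against 939 in control 2 and 751 with acetaldehyde. It fell by 0.97 (SE 0.15, limma adjusted p = 0.0169). NSDHL, a sterol dehydrogenase that acts with MSMO1, was at 1115, 1067, 616 and 621, with nearly equal values inside each experiment. EBP, the sterol isomerase, was at 1134, 915, 635 and 611. NSDHL fell by 0.82 and EBP by 0.71 (limma adjusted p = 0.0140 and 0.0201).

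The other 3 enzymes of this arm overlapped between experiments. SQLE, squalene epoxidase and a rate-limiting step, was nearly level at 2933, 2893, 3058 and 2710.5, with an estimate of -0.02 (SE 0.12). LSS, which closes the rings to form lanosterol, was at 396, 296, 417 and 371, lowest with ethanol. TM7SF2, a C14 sterol reductase, was at 213, 147, 194 and 147, lower in both exposed cultures than in either control. It passed the filter only through the controls, so that order was built in. The probe set that HSD17B7 shares with its pseudogene was at 211, 279, 122 and 137, so what it measures is uncertain.

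**Figure D2:**
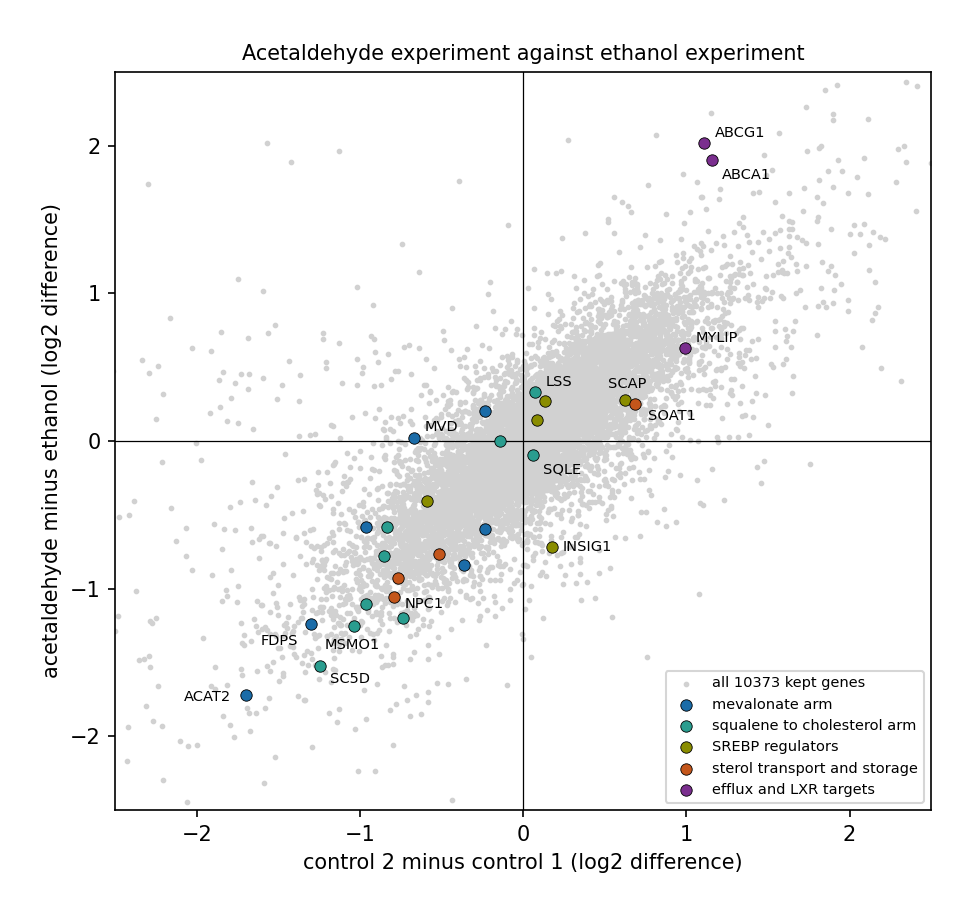
Log2 difference of control 2 from control 1 (x axis) against that of acetaldehyde from ethanol (y axis). Grey marks the 10373 kept genes and colour the members. The differences share no array, but they share the normalization of the experiments, which appears to have been separate. ACAT2, SC5D, FDPS and MSMO1 lie low on both axes and ABCA1 and ABCG1 high on both, while MVD and INSIG1 differ on 1 axis. The axes stop at 2.5 either way, which leaves out 90 other genes.

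Of the 5 regulators of SREBP, 4 did not pass in the experiment fit, and the other, INSIG2, was dim. SREBF2, which encodes the SREBP mainly tied to cholesterol genes and whose promoter holds the sterol element above, was at 569 in control 1 and 518 with ethanol, against 603 in control 2 and 572 with acetaldehyde. Its estimate between experiments was 0.11 (SE 0.11, limma adjusted p = 0.464), so no difference beyond the spread was detected. SREBF1, whose product favours fatty acid genes, was at 398, 312, 437 and 376, lowest with ethanol. SCAP, the escort, was at 513, 526, 789.7 and 638, higher in the acetaldehyde experiment but short of the threshold (estimate 0.45, limma adjusted p = 0.0623), which it passed when the arrays were normalized together.

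INSIG2, which retains SCAP and responds little to SREBP itself, was at 186, 182, 123 and 138. Both arrays of the acetaldehyde experiment were lower, by an estimate of -0.50 (SE 0.12), and under the filter intensity of 155, so INSIG2 passed the filter only through the experiment where it was higher. INSIG1, a retention protein that is itself a well known SREBP target, was at 397, 501, 449.7 and 305, highest with ethanol and lowest with acetaldehyde. The experiments overlapped for INSIG1, and its experiment estimate of -0.27 had an SE of 0.24 (limma adjusted p = 0.406).

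Transport genes were lower in the acetaldehyde experiment, the storage enzyme was not. NPC1, the membrane protein that releases cholesterol from lysosomes, was at 1877 in control 1 and 2426 with ethanol, against 1085 in control 2 and 1164 with acetaldehyde. NPC2, its soluble partner, was at 2735, 3306, 1909 and 1944. NPC1 fell by 0.92 and NPC2 by 0.64 (limma adjusted p = 0.0140 and 0.0239). STARD4, a cytosolic sterol carrier, was at 212, 259, 125 and 136, an estimate of -0.85 (SE 0.12). It was under the filter intensity on both arrays of the acetaldehyde experiment, so its passing required the ethanol experiment to be higher. SOAT1, which esterifies cholesterol for storage, was lowest in control 1 at 310.1, against 507 with ethanol, 499 in control 2 and 605 with acetaldehyde. Its experiment estimate of 0.47 did not pass (limma adjusted p = 0.0690).

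In the LXR group the values of the acetaldehyde experiment were the higher ones. ABCA1, which loads cholesterol onto lipid-poor apolipoprotein, was at 55.9 in control 1 and 41.6 with ethanol, against 124 in control 2 and 156 with acetaldehyde. Its estimate between the experiments was 1.53 (SE 0.21). ABCG1, which exports sterol to mature lipoprotein particles, was at 99.5, 63.0, 215 and 255 with an estimate of 1.56 (SE 0.24). MYLIP, the ubiquitin ligase that removes lipoprotein receptors, was at 79.6, 84.9, 158 and 131 with an estimate of 0.81 (SE 0.14). The experiments did not overlap in any of the 3. All 3 passed the filter only through the acetaldehyde experiment, so nothing is read from that.

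These LXR targets were dim, and dim genes as a class read higher in control 2. They passed the filter only through the acetaldehyde experiment, so their passing already required values that were higher there. All 2746 genes with a control 1 intensity between 55.9 and 99.5 had a median difference of 0.34 in control 2, and 23.4% of them were at least 1.5-fold higher. With the 4 arrays normalized together that median was 0.00553, and the differences of control 2 from control 1 were 0.82 for ABCA1, 0.91 for ABCG1 and 0.73 for MYLIP, against 1.15, 1.11 and 0.99 as deposited. The estimates of the fit were then 1.19, 1.34 and 0.53 in the same order of genes.

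**Figure D3:**
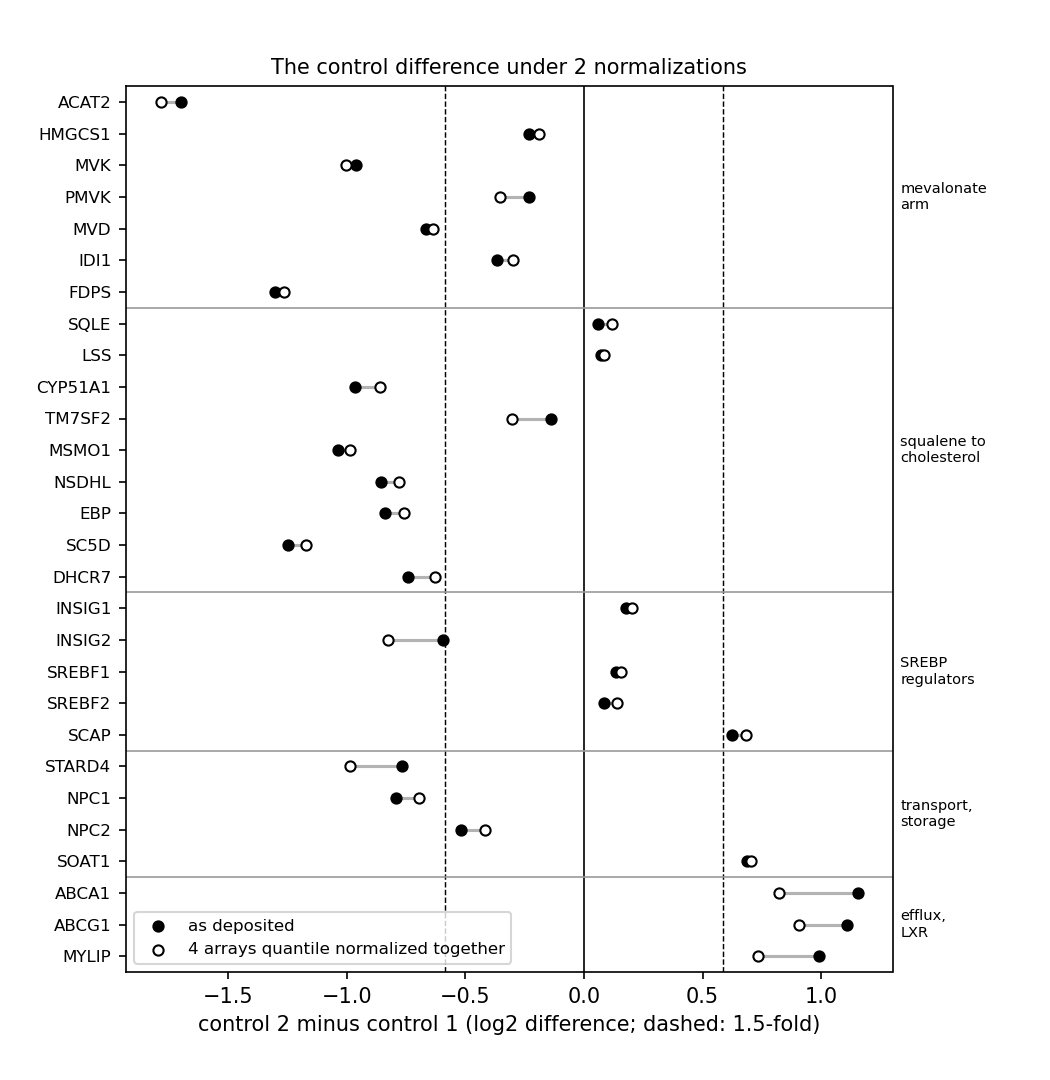
Log2 difference of control 2 from control 1 for each member, as deposited (filled) and with the 4 arrays quantile normalized together (open), with 1 array per culture. The 13 members at least 1.5-fold lower and the 5 at least 1.5-fold higher number the same under both, and the open points of ABCA1, ABCG1 and MYLIP lie closer to 0.

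Enzymes were moved little by that choice: as deposited and normalized together, 10 of 16 were at least 1.5-fold lower in control 2, with medians of -0.79 and -0.70. Normalized together, 13.8% of all genes were that much lower and 12.5% higher. In the exposed cultures, acetaldehyde minus ethanol gave 9 of 16 enzymes at least 1.5-fold lower and a median of -0.69, a comparison added after the data were seen. Over all members there, 13 were that much lower, against 13.2% of genes, and 3 higher, against 12.4%. The 3 higher were ABCA1, ABCG1 and MYLIP, and STARD4 was among the 13 lower, all kept only through the experiment where they were higher. MVD, lower in control 2 by 0.67, was at 0.02 in acetaldehyde minus ethanol.

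The ethanol comparison asked what 1 week in ethanol changed against control 1. Synthesis enzymes showed no common shift, with 11 of 16 below control 1 and a median of -0.11, against 0.05 over all genes. Of all genes 42.2% were below control 1. Against the mean of both controls the enzyme median was 0.34, so its direction rested on which control was used, and 4 members were then at least 1.5-fold higher, against 6.95% of genes. MVD (-0.72, 1.64-fold lower) and MVK (-0.64, 1.56-fold lower) were the enzymes past 1.5-fold, and ABCG1 was at -0.66. These 3 of 28 members compare with 4.22% of all genes at least 1.5-fold lower. ABCG1 was under the filter intensity on both arrays compared here. It passed only through the acetaldehyde experiment, so nothing is read from its call. SOAT1 was the only member at least 1.5-fold higher, at 0.71, against 5.44% of genes. No member was 2-fold apart, while 2.11% of genes were that much lower and 1.17% higher. TM7SF2 (-0.54) and LSS (-0.42) followed among the enzymes, and SREBF1 had the largest difference among the regulators at -0.35. TM7SF2 passed the filter only through the controls, so a lower exposed value was built in.

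For several of these genes the unexposed cultures were as far apart. MVD was 0.67 lower in control 2 than in control 1, SOAT1 0.69 higher and MVK 0.96 lower, so their ethanol values were close to control 2 or, for MVK, between the controls. Both differences subtract control 1, so they share that array. With ethanol LSS, SREBF1 and MVD were among the members below both controls, as was TM7SF2, which passed the filter only through the controls. Among those above both were NPC1, NPC2, IDI1, HMGCS1, INSIG1 and STARD4, the last of which passed only through the ethanol experiment. The share of all genes so placed was not taken, so no count is read. The 4 transport and storage genes were all above control 1, by 0.27 to 0.71, as deposited and with the arrays normalized together. All 16 squamous markers were at least 1.5-fold lower with ethanol, at a median of -3.01, and their part in these values was not tested.

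The acetaldehyde comparison asked the same of acetaldehyde against control 2. No member was 1.5-fold apart, against 0.974% of all genes lower and 0.742% higher by that much. The differences were small and mostly below 0: 14 of 16 enzymes were below control 2, with a median of -0.14, against 0.00 over all genes and 49.3% of genes below 0. INSIG1 was the lowest member at -0.56, 1.47-fold lower, and reached -0.62 with the arrays normalized together, the 1 member then 1.5-fold lower, against 1.26% of genes. Against the mean of both controls 7 members, all enzymes, were at least 1.5-fold lower (4.36% of genes) and 3 higher (4.16%), since that mean takes in control 1. TM7SF2 (-0.40), MSMO1 (-0.38) and DHCR7 (-0.32) were the lowest enzymes, and SCAP was at -0.31. TM7SF2 passed the filter only through the controls, so its lower value, also among the 14, was built in. ABCA1 (0.32), SOAT1 (0.28) and ABCG1 (0.25) were the highest members. ABCA1 passed the filter through the acetaldehyde array alone, so its higher value was built in and nothing is read from its rank. All 4 transport and storage genes were above control 2, from NPC2 at 0.03 to SOAT1 at 0.28, but NPC2 was at -0.01 with the arrays normalized together. The squamous markers had a median of -0.73 in this comparison, with 8 of 16 at least 1.5-fold lower, and their part was not tested.

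**Figure D4:**
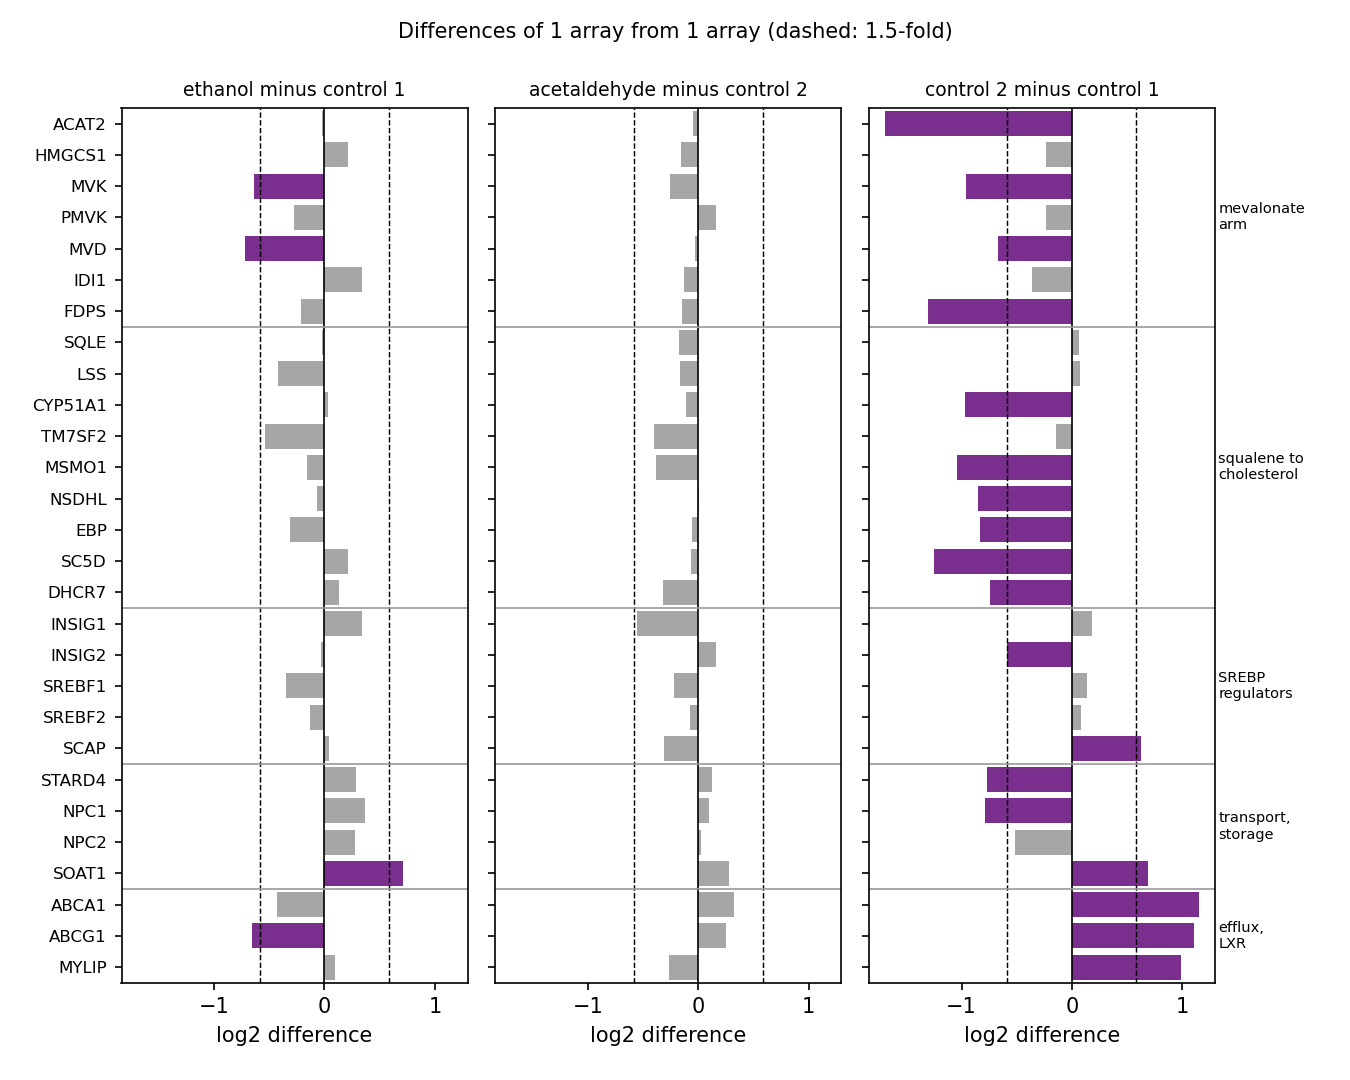
Log2 difference of each member in the 3 comparisons, each of 1 array from 1 array, with bars at least 1.5-fold from 0 in purple and dashed lines at 1.5-fold. Ethanol shows 4 purple bars, acetaldehyde shows none, and the difference between the controls shows 18.

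In the limma fit over both exposures with the experiment as a block, 0 members passed, and 0% of the 10373 genes (smallest adjusted p = 0.495). At an unadjusted p under 0.05 there were 1024 genes, among them 3 members. TM7SF2 had an estimate of -0.47 (SE 0.12), but both exposed cultures were under the filter intensity and it passed only through the controls, so a lower exposed value was built in. SOAT1 was higher in both (estimate 0.49, SE 0.15, limma unadjusted p = 0.0242), and MVK was lower in both (-0.45, SE 0.14, limma unadjusted p = 0.0278). Lower with both exposures were 11 members, against 26.9% of all genes, and higher with both were 4, against 35.4%. The fit takes the disagreement between the exposures as its error, although the agents and doses differ.

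The other genes of the pathway were read from 4 further lists with 42 genes, of which 27 were measured and bright enough. With ethanol and with acetaldehyde none of the 27 was 1.5-fold apart, their medians being 0.20 and 0.06. In the experiment fit 3 rose and 3 fell, beside 18.6% of all genes called higher and 16.6% called lower, so these counts show nothing particular to the pathway. MARCHF6, a ubiquitin ligase that degrades squalene epoxidase, rose by 0.77 (SE 0.13), with intensities of 1925 in control 1 and 2329 with ethanol, against 3603 in control 2 and 3621 with acetaldehyde. OSBP, an oxysterol-binding lipid exchanger, rose by 0.63 and GRAMD1A, a carrier of plasma membrane cholesterol, by 0.53. ERLIN1, a partner of sterol-dependent degradation, fell by 0.69, LIPA, the lysosomal lipase that frees cholesterol, by 0.76, and STARD3, a late endosome sterol carrier, by 0.58. Limma adjusted p for these 6 ran from 0.0178 to 0.0438.

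LPCAT3, an LXR target that remodels membrane phospholipids, was at 1562 in control 1 and 2003 with ethanol, against 3018 in control 2 and 2382 with acetaldehyde. It was 0.95 higher in control 2 than in control 1, but the experiment estimate of 0.60 did not pass (limma adjusted p = 0.0729). VLDLR, a lipoprotein receptor under the filter, was at 139.6, 93.7, 74.1 and 63.9. NR1H3, which encodes LXR alpha, was under the filter as well, at 76.7 to 109. The isoprenoid branch, which diverts farnesyl and geranylgeranyl units to proteins, dolichol and ubiquinone, had 7 measured genes. None was 1.5-fold apart between the controls, where they ranged from -0.33 to 0.17, and none passed in the experiment fit.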

How the data were processed

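Intensities on a linear scale were deposited by the authors in 1 table with 1 column per array (0 columns of other samples). RMA is named in the submitters' processing notes, but the program that ran it is not stated there. The design assumed log2 values, so log2 was taken, with no offset. Of 33297 probe sets, 19460 named 1 gene, 1754 several and 12083 none in the platform annotation. The brightest probe set stood for a gene (769 genes had several), and genes whose highest log2 value was under 7.28 were left out, leaving 10373 of 18417. Each group had 1 array, whose number limits the precision. Single comparisons used a 1.5-fold threshold. Both fits used limma 3.58.1 (R 4.3.3) on 4 arrays with terms for exposure and experiment, with Benjamini-Hochberg adjustment. On simulated data of 10373 genes the exposure fit recovered 56 of 100 genes changed by a log2 of 1 and 99 of 100 changed by 2, and the experiment fit recovered 62 and 99. False calls numbered 6 in the exposure fit and 8 in the experiment fit. The simulated exposure change was the same in both experiments, with independent noise. It thus says nothing of genes that ethanol and acetaldehyde change differently, and the 0 calls of the exposure fit do not show an absence of change. Members, gene lists and tests were chosen with earlier results of these data known. All members were named, with other pathway genes at least 1.5-fold apart in a comparison. LIPA, STARD3, OSBP, VLDLR and NR1H3 were added after their values were seen.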

Additional observations from a re-analysis of the deposited data

Results flagged for a closer look

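Ethanol and acetaldehyde differed from their own controls in opposite directions in 13 of 28 members, as single arrays. Of all genes 26.9% were lower with both exposures and 35.4% higher with both, so opposite directions were common and nothing is read from this count. In 3 of the 13 the differences were at least 1.5-fold apart, and how many of all genes had such a gap was not counted. INSIG1 was higher with ethanol (0.34) and lower with acetaldehyde (-0.56), so that the ethanol difference less the acetaldehyde difference was 0.89 on the log2 scale. ABCA1 was lower with ethanol (-0.43) and higher with acetaldehyde (0.32), a gap of -0.75. ABCG1 was lower with ethanol (-0.66) and higher with acetaldehyde (0.25), a gap of -0.91. The difference was not tested in any of the 3, because each group had 1 array. ABCA1 and ABCG1 were below the filter intensity of 155 on both arrays of the ethanol experiment. ABCA1 was below it in control 2 as well and passed through the acetaldehyde array alone. Its higher value with acetaldehyde was thus built in.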

How the results depend on the processing

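The control used mattered most. Against the mean of both controls, ethanol had 4 members at least 1.5-fold higher and 0 enzymes lower, with an enzyme median of 0.34 in place of -0.11. Acetaldehyde then had 7 members lower, all enzymes (7), and 3 higher, with an enzyme median of -0.47. At a fold of 2, ethanol kept 0 members lower, 0 higher and 0 enzymes lower, while control 2 minus control 1 had 4 members lower (4 enzymes) and 2 higher. With the arrays normalized together, acetaldehyde had 1 member lower, INSIG1. In the exposed cultures, chosen after seeing the data, 3 members (the dim ABCA1, ABCG1 and MYLIP) were higher and MVD was at 0.0226 in place of -0.67. With no filter on dim genes the experiment fit called 8183 of 18417 genes, against 3651. The experiment fit called 15 to 19 members over its 5 alternatives, and the exposure fit called 0 in each of its 5. The 19 were called with no filter, where 8183 of all genes were called too. These counts include dim members from whose calls nothing is read. The exposure fit, with the experiment as a block, is the paired analysis of both control and exposed pairs; without the block it called 0 genes too. Leaving out an array leaves no residual degree of freedom. Dim values limit ABCA1, ABCG1, MYLIP, INSIG2, STARD4 and TM7SF2.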
